A study of Mus musculus with 3 samples.

Results

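Endothelial cells were a minor population of CD45+ enriched mouse dorsal skin, and they were found by their own transcripts. A cell was chosen as endothelial if at least 3 of 7 genes of blood vessel lining had a UMI (a unique molecular identifier, 1 counted transcript). The 7 genes were Pecam1, Cdh5, Cldn5, Kdr, Flt1, Egfl7 and Emcn. A chosen cell also had at most 1 UMI of the leukocyte genes Ptprc and Tyrobp together and fewer than 5 UMIs of the keratins Krt14 and Krt5. The cells were thus selected on measured values of these 11 genes. They were 479 of 16604 kept cells, of which WT_Ctrl gave 103, WT_UV 20 and RP_UV 356.

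Endothelial cells line blood and lymphatic vessels. In the dermis, capillaries exchange nutrients and fatty acids with the tissue, small arteries set the inflow, and postcapillary venules are the site where circulating leukocytes attach and leave the blood. Attachment uses selectins, which catch rolling leukocytes, and then members of the immunoglobulin family such as ICAM-1 and VCAM-1, which hold them, and these proteins are known to be induced on inflamed venules. Prostaglandins made by cyclooxygenases, among them Cox-2 (gene Ptgs2), are known to act on vessel tone and permeability.

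The study profiled 3 conditions, each with 1 library from 1 mouse. All animals were C57Bl/6 males aged 8 weeks with hair follicles in telogen. WT_Ctrl was wild-type skin without UVB, and WT_UV was wild-type skin after 3 UVB exposures. RP_UV was skin of a mouse with Rosa26-rtTA and Tre-Ptgs2 (the RP line) after the same 3 exposures. According to the study the RP line overexpresses rat Ptgs2 throughout the body under doxycycline, so the overexpression is not restricted to vessels. The study found it mainly in keratinocytes of the epidermis and in immune cells that had entered the skin. Both irradiated libraries were collected at the same time point. RP_UV and WT_Ctrl therefore differed in both UVB exposure and genotype, and the parts of these in any difference below cannot be told apart. Whether the wild-type mice of these libraries received doxycycline is not stated in the study, so its part cannot be told apart either.

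The whole libraries held 34985549 UMIs (WT_Ctrl), 82722013 (WT_UV) and 37689836 (RP_UV). The raw-file IDs in the labels share a run code between WT_Ctrl and RP_UV, and WT_UV has another, so depth, run and group cannot be told apart for WT_UV. Endothelial cells had medians of 3242, 5726 and 3764 UMIs in the same order and median mitochondrial shares of 3.14%, 2.7% and 3.44%. Their summed UMIs were 392741, 165401 and 1529326. The libraries shared between 8 and 11 barcodes pairwise, and no barcode was an endothelial cell in more than 1 library. With 1 library per group there is no replicate check of any difference, and no test or p-value was computed. Intervals below are 95% intervals and cover counting error only.

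Endothelial cells took the largest share in RP_UV. Without UVB they made up 1.94% of kept cells (Wilson interval 1.6 to 2.35). The share was 0.383% (0.248 to 0.591) for WT_UV, against 5.86% (5.3 to 6.48) for RP_UV. The share in RP_UV was 3.02 times that in WT_Ctrl (2.44 to 3.75), and the share in WT_UV was 0.197 of it (0.122 to 0.318). Since the skin had been enriched for CD45+ leukocytes, the share depended on how many other cells passed the beads and how many leukocytes were there. Of the cells with at most 1 UMI of Ptprc and Tyrobp, 4.73%, 2.52% and 13.6% were endothelial, and the ratio of RP_UV over WT_Ctrl was 2.86 (2.32 to 3.54). The part of the enrichment in this difference was not tested.

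Most selected cells were well inside the limit. The cells just outside it, with 2 of the 7 genes, numbered 9, 3 and 44 in WT_Ctrl, WT_UV and RP_UV and had medians of 3, 2 and 3 UMIs of these genes. The cells just inside it, with 3 genes, numbered 11, 3 and 40 and had medians of 8, 5 and 5 UMIs. The leukocyte limit removed 4, 5 and 26 cells with at least 3 endothelial genes, and the keratin limit 0, 2 and 11. No UMI of Ptprc, Tyrobp, Krt14 or Krt5 was found in 94.2%, 90% and 59.8% of the selected cells, in the same order, so a UMI of these genes was most frequent in RP_UV. With such cells left out the ratio of shares was 1.92.

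**Figure D1:**
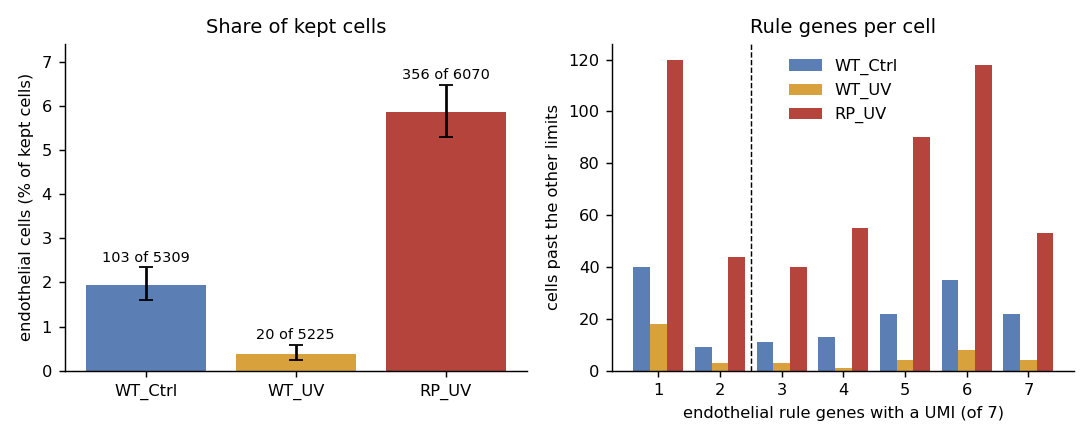
Endothelial cells per library. Left, bars give endothelial cells as a percentage of kept cells, with Wilson 95% intervals, highest in RP_UV (5.86%) and lowest in WT_UV (0.383%). Right, number of cells that passed the leukocyte and keratin limits by how many of the 7 endothelial genes had a UMI (cells with none are not drawn). Cells to the right of the dashed line were selected.

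The label held against genes the selection had not used. Among 16 further genes of endothelium, all had at least 50 UMIs over WT_Ctrl and RP_UV and none differed by 2-fold between them. Plvap, which forms the diaphragms of fenestrae and caveolae, had a level of 914 CPM (counts per 1000000 UMIs of all selected cells of a library) for WT_Ctrl, 1578 for WT_UV and 1512 for RP_UV. Ptprb, the receptor phosphatase that restrains Tie2, was at 1052, 544 and 657 CPM. With each cell thinned to 1000 UMIs, Esam, a junction adhesion molecule of endothelium, had a UMI in 42.3%, 31.6% and 44.7% of the selected cells, against 0%, 0% and 0.0825% of macrophages of the same libraries. Macrophages, which lack the gene, thus marked a background near 0.

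Of the 7 selection genes themselves, Cldn5, the main claudin of endothelial tight junctions, stood out. It was at 919 CPM in WT_Ctrl, 756 in WT_UV and 298 in RP_UV. Kdr, the main VEGF receptor, was at 514, 242 and 320 CPM, and Pecam1 at 1077, 901 and 871. Egfl7 and Emcn were not lower in RP_UV, at 838 and 853 CPM and at 321 and 428 CPM in WT_Ctrl and RP_UV. Since these genes chose the cells, these levels and shares are a description only.

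At 1000 UMIs a cell the shares of vessel types had overlapping intervals in WT_Ctrl and RP_UV, except for lymphatic cells. A cell was called capillary-like, venous-like, arterial-like or lymphatic-like if it held at least 2 genes of the respective list after thinning to 1000 UMIs, which left 97, 19 and 340 cells in WT_Ctrl, WT_UV and RP_UV, and a cell could meet several lists. Capillary-like cells made up 69.1% (59.3 to 77.4), 26.3% (11.8 to 48.8) and 69.1% (64 to 73.8). Venous-like cells made up 8.25% (4.24 to 15.4), 10.5% (2.94 to 31.4) and 12.4% (9.27 to 16.3). The intervals of WT_Ctrl and RP_UV overlapped for both classes, whereas that of the capillary-like share in WT_UV lay below both. Such overlap does not show equal shares, and WT_Ctrl had only 8 venous-like cells.

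Arterial-like cells made up 11.3% (6.45 to 19.2), 5.26% (0.935 to 24.6) and 10.3% (7.5 to 14) in WT_Ctrl, WT_UV and RP_UV. In the same order, lymphatic-like cells were 6 of 97 (6.19%, 2.87 to 12.8), 1 of 19 (5.26%, 0.935 to 24.6) and 2 of 340 (0.588%, 0.161 to 2.12). Without thinning the 4 shares were higher in every library except the lymphatic-like share of WT_UV, at 86.4%, 26.2%, 34% and 7.77% in WT_Ctrl and 89.3%, 37.4%, 34.8% and 1.12% in RP_UV for the capillary, venous, arterial and lymphatic lists. In WT_UV, the unthinned capillary-like share was 70%.

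**Figure D2:**
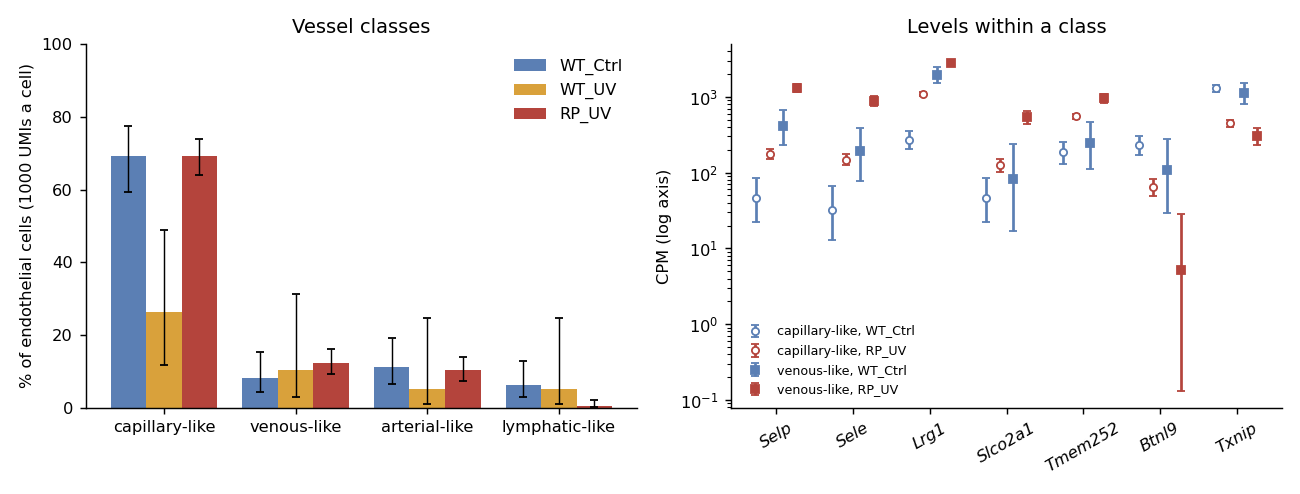
Vessel classes among endothelial cells. Left, bars give the percentage of cells (each thinned to 1000 UMIs) with at least 2 genes of a class list, with Wilson 95% intervals. Right, CPM on a log axis of 7 genes in capillary-like (open circles) and venous-like (filled squares) cells of WT_Ctrl and RP_UV, with exact Poisson 95% intervals, where each cell had 1 class. Selp, Sele and Slco2a1 were higher in RP_UV within both classes, and Btnl9 and Txnip were lower in RP_UV within both, where Btnl9 helped to choose the capillary-like cells and rests on 4 and 1 UMIs in venous-like cells.

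In RP_UV against WT_Ctrl, 5156 genes had at least 50 UMIs over both libraries. The ratio of CPM was at least 2 for 189 of them (3.67%) and at most 0.5 for 184 (3.57%), and these genes are called past 2-fold. The median log2 ratio over all 5156 genes, with 1 CPM added, was -0.04, with quartiles of -0.38 and 0.30. After removal of the selection genes, mitochondrial, ribosomal and sex-linked genes and unnamed gene models, 180 higher and 178 lower genes were left. Of these, 67 and 32 were set aside as below 0.5 of the level of another cell class in the library where they were higher. Only classes with at least 50 cells were compared. For the higher genes this left out T cells of RP_UV (49 cells). For the lower genes it left out pericytes and smooth muscle cells (33) and neutrophils (9) of WT_Ctrl. The counts set aside in the 2 directions thus rest on different classes. The first 5 set aside were Hbb-bs, Hbb-bt, Hba-a2, Hba-a1 and Acta2 among the higher genes, which mark red cells and smooth muscle, and Krt77, Calm4, Krtdap, Krt10 and Sbsn among the lower genes, which mark the differentiated epidermis.

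The 15 genes with the highest ratios among those left, ranked by the bound of the interval nearest to 1, were Selp, Sele, Peg3, Lrg1, Fam167b, Col18a1, Ada, Vcam1, Tmem252, Ctla2a, Il6, Isyna1, Slco2a1, Adamts9 and Csrp2. The 15 with the lowest were Ccl21a, Nsg1, Sned1, Depp1, Txnip, Btnl9, Rnf144a, Rgs4, Ablim3, Slc41a1, Rsad2, Trp53i11, Cdkn1c, Limch1 and Clec2d.

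**Figure D3:**
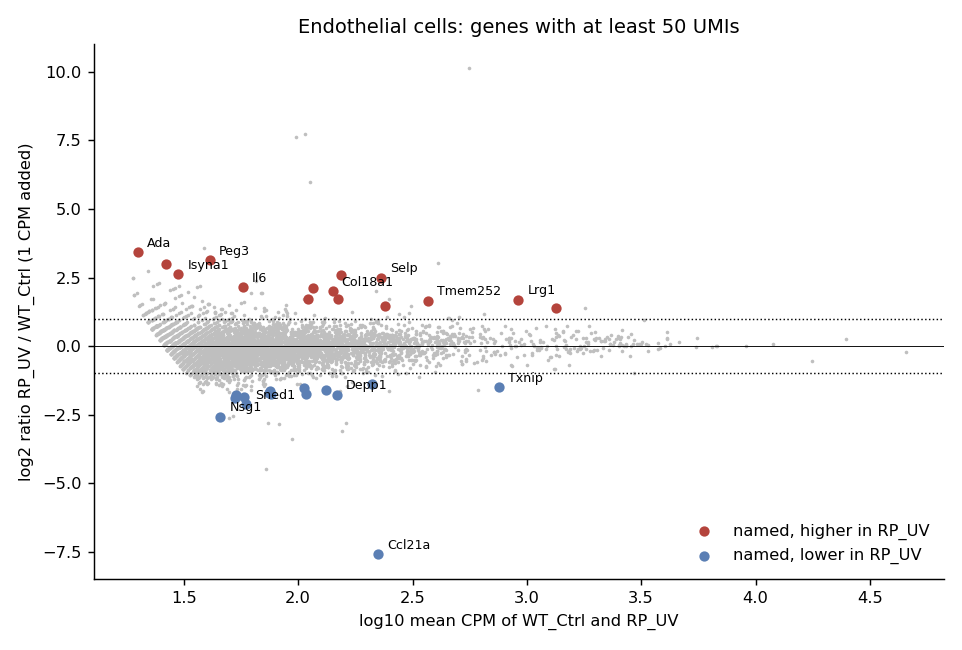
Each point is a gene with at least 50 UMIs over both libraries, by its mean CPM in endothelial cells of WT_Ctrl and RP_UV (log10) and its log2 ratio of RP_UV over WT_Ctrl with 1 CPM added. Red and blue points are the 15 named genes with the highest and the 15 with the lowest ratios, some of them labelled, and dotted lines mark 2-fold. Most genes lay near 0 (quartiles -0.38 and 0.30), and Ccl21a stood farthest below.

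Of these 15 higher genes 3 encode adhesion molecules for leukocytes, Selp, Sele and Vcam1. Selp encodes P-selectin, which endothelial cells store in granules and bring to the surface to catch leukocytes and platelets. It was at 68.7 CPM in WT_Ctrl, 187 in WT_UV and 393 in RP_UV, a ratio of RP_UV over WT_Ctrl of 5.72 (exact binomial interval 3.89 to 8.75). Sele encodes E-selectin, which is made anew when endothelium is activated. It was at 43.3, 151 and 266 CPM, a ratio of 6.15 (3.79 to 10.7). Both selectins were lowest in WT_Ctrl and highest in RP_UV, and WT_UV, with 31 and 25 UMIs from 7 cells each, lay between.

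The selectins were spread over many cells of RP_UV. Selp had a UMI in 110 of the 356 cells and Sele in 95, with no more than 6.82% and 5.9% of the UMIs in a single cell. In WT_Ctrl 1 cell held 44.4% of the 27 Selp UMIs, and 5 cells held 82.4% of the 17 Sele UMIs. At 1000 UMIs a cell, Selp had a UMI in 2.06%, 15.8% and 21.5% of cells in WT_Ctrl, WT_UV and RP_UV, against 0.0825% of macrophages in RP_UV. At least 1 of Sele, Selp and Vcam1 was found in 6 of 97 cells (6.19%, 2.87 to 12.8), 4 of 19 (21.1%, 8.51 to 43.3) and 94 of 340 (27.6%, 23.2 to 32.6). These 3 genes were named for their ratios in the same cells, so the shares are a description only.

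Venous-like cells had the highest selectin levels in both libraries, which in WT_Ctrl rested on few UMIs. Each cell was given 1 class for this purpose (lymphatic, then venous, arterial and capillary), which made 7 cells venous-like in WT_Ctrl and 42 in RP_UV. Within them Selp was at 409 CPM in WT_Ctrl and 1306 in RP_UV, a ratio of 3.19 (1.9 to 5.79), and Sele at 191 and 886, a ratio of 4.64 (2.2 to 11.7). Within capillary-like cells Selp was at 45.9 and 177 CPM, a ratio of 3.85 (2.04 to 8.18), and Sele at 32.1 and 148, a ratio of 4.6 (2.17 to 11.7). The 33 arterial-like cells of RP_UV had no UMI of either selectin, nor had the 10 of WT_Ctrl. The difference was thus present within the venous-like and the capillary-like cells. The 7 venous-like cells of WT_Ctrl carried 15 Selp UMIs in all, 12 of them in 1 cell, and 7 Sele UMIs. Their levels and ratios thus depend on very few cells, which the intervals do not cover.

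Vcam1, whose product holds leukocytes by their integrins, was rare. It was at 5.09 CPM in WT_Ctrl (2 UMIs), 24.2 in WT_UV (4 UMIs) and 47.7 in RP_UV (73 UMIs in 45 cells), a ratio of 9.37 with a wide interval (2.5 to 78.9). Keratinocytes of RP_UV, which lack the gene, were at 0.298 CPM and fibroblasts at 48. Icam1 was not past 2-fold, at 188, 175 and 298 CPM, a ratio of 1.58 (1.24 to 2.05), and was higher in neutrophils of RP_UV, at 479 CPM. By class its ratio was 2.79 (1.72 to 4.8) in capillary-like, 2.01 (1.16 to 3.77) in venous-like and 2.01 (1.09 to 4.05) in cells of no class. In arterial-like cells it was 0.274 (0.094 to 0.817), from 9 UMIs in RP_UV and 8 in WT_Ctrl. In lymphatic-like cells it was 0.463 (0.0527 to 1.88), from 2 and 22 UMIs. These 22 were among the 74 Icam1 UMIs of WT_Ctrl and came from 6 cells, 1 of which held 20. The direction for Icam1 thus differed between classes, but the ratios below 1 rested on few UMIs in RP_UV. Ackr1, the chemokine scavenging receptor of venules, was at 150, 351 and 287 CPM, a ratio of 1.91 (1.45 to 2.55), and Vwf, von Willebrand factor, at 148, 284 and 204.

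Of the 12 listed genes of leukocyte adhesion, 11 had at least 50 UMIs over both libraries, and 3 were higher past 2-fold (Sele, Selp and Vcam1) against a background of 3.67%. Jam3, a junction adhesion molecule, was the only one lower, at 63.7, 18.1 and 24.2 CPM (order WT_Ctrl, WT_UV, RP_UV), a ratio of 0.38 (0.223 to 0.659). The median log2 ratio of the list was 0.37. Cd34, Podxl, Jam2 and Icam2, further surface molecules of vessels, had ratios from 0.953 to 1.29.

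The 250 bases before the start of Sele, Selp and Il6 are shown because these transcripts were higher in RP_UV than in WT_Ctrl. In WT_UV, Il6 had a ratio over WT_Ctrl of 1.19 (0.262 to 4.43), against 2.73 for Selp and 3.49 for Sele. Capitals mark the letters of an NF-kB motif (GGG, then 5 bases of any kind, then CC) or an AP-1 motif (TGANTCA) on either strand. Overlapping matches run together. The sequences are from the RefSeq promoter table, build GRCm38.p6, on the + strand, at chr1:164047984-164048233 (Sele), chr1:164115014-164115263 (Selp) and chr5:30012864-30013113 (Il6), and Sele and Selp start 67030 bases apart.
Sele: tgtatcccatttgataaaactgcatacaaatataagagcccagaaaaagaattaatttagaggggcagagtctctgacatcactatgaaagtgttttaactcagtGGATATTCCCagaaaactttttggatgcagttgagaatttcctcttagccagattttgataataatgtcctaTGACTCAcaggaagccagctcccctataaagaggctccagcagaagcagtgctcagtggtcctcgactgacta
Selp: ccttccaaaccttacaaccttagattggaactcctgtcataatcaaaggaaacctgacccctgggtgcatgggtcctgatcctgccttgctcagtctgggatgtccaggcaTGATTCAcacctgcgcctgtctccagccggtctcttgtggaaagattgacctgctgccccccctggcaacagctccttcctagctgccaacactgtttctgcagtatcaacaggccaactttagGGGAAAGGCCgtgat
Il6: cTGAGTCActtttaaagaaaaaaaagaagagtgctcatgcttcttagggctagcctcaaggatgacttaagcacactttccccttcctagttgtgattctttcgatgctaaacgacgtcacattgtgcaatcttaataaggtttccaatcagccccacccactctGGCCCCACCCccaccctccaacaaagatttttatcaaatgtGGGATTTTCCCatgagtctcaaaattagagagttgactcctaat

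All 3 promoters held letters of both motifs. The NF-kB letters lay 145 to 136 bases before the start in Sele, 15 to 6 in Selp, and 85 to 76, 44 to 35 and 43 to 34 in Il6. The letters are common: over 32851 promoters 45.8% held the NF-kB letters and 6.75% held TGANTCA on either strand, while TGACGTCA (CRE) was in 1.55% and CACGTG (E-box) in 6.02%. Of the listed genes past 2-fold with a promoter in the table, the NF-kB letters were in 12 of 14 higher and 11 of 13 lower genes, and a gene with several promoters counted if any of them matched. TGANTCA was in 4 of 14 and 1 of 13. A match describes the letters in this window and is not a binding site.

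Among secreted signals, Il6, Ccl11 and Cxcl1 were higher in RP_UV and Cxcl12 was not. Il6, the cytokine interleukin-6, was at 20.4 CPM in WT_Ctrl, 24.2 in WT_UV and 94.2 in RP_UV, a ratio of 4.62 (2.28 to 10.9), and had UMIs in 7, 3 and 78 cells. At 1000 UMIs a cell it was found in 7.65% of endothelial cells and 0.248% of macrophages of RP_UV. WT_UV thus lay near WT_Ctrl for Il6, with only 4 UMIs. Pericytes and smooth muscle cells of RP_UV were at 62.9 CPM, and without the endothelial cells that held at least 3 of 8 pericyte genes the log2 ratio was 2.55, against 2.15 with them.

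Ccl11, the eosinophil attractant eotaxin, was at 12.7, 0 and 59.5 CPM (order WT_Ctrl, WT_UV, RP_UV), a ratio of RP_UV over WT_Ctrl of 4.67 (1.93 to 14.7). Cxcl1, a neutrophil attractant, was at 56, 48.4 and 122 CPM, a ratio of 2.17 (1.39 to 3.55). Both were at higher levels in stromal cells of RP_UV, with Ccl11 at 132 CPM in fibroblasts and Cxcl1 at 412 in pericytes and smooth muscle cells. The log2 ratio of Cxcl1 was 1.10, and it was -0.04 without cells that held a macrophage-gene UMI and 2.43 without cells that held 3 pericyte genes, so its direction depended on which cells were summed. Cxcl12, which retains leukocytes and progenitors near vessels, was at 1675, 822 and 945 CPM, a ratio of 0.564 (0.514 to 0.619). Of the 16 listed chemokines and cytokines 5 had at least 50 UMIs, 3 were higher (background 3.67%), Cxcl1 among them, and none was lower past 2-fold. Ccl2 had 0, 1 and 31 UMIs, and at 1000 UMIs a cell it was found in 2.35% of endothelial cells of RP_UV against 31.2% of macrophages, which make it, so free RNA and expression in endothelial cells cannot be told apart.

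Measured genes of the list named NF-kB feedback, which holds inhibitors, subunits and other targets of the pathway, were not past 2-fold apart from Irf1. Nfkbia, the inhibitor of NF-kB, was at 1128, 1058 and 1563 CPM (order WT_Ctrl, WT_UV, RP_UV), a ratio of 1.39 (1.25 to 1.54). Irf1, an interferon-regulated transcription factor, was at 191, 109 and 94.8 CPM, a ratio of 0.496 (0.373 to 0.665), and its log2 ratio was 0.10 at 1000 UMIs a cell. Of 9 such genes with at least 50 UMIs, 0 were higher and 1 was lower (background 3.67% and 3.57%). The median log2 ratio was 0.18. Socs3, the feedback inhibitor of cytokine receptors, had a ratio of 1.61 (1.31 to 1.99).

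Lrg1, a secreted glycoprotein of activated venules that modifies TGF-beta signalling, was the most abundant of the 15 higher genes after Ctla2a. It was at 433 CPM in WT_Ctrl, 961 in WT_UV and 1403 in RP_UV, a ratio of 3.24 (2.77 to 3.81), and was found in 24.7%, 36.8% and 53.8% of cells at 1000 UMIs a cell. The ratio was 4.06 (3.12 to 5.38) in capillary-like cells, where it was at 271 and 1101 CPM, and 1.41 (1.1 to 1.83) in venous-like cells, at 1964 and 2765 CPM. The level in WT_Ctrl was thus already high in venous-like cells. Macrophages had a Lrg1 ratio of 3.68 (3.08 to 4.43) at a lower level, with 59.5 CPM in RP_UV.

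Ctla2a, a cysteine protease inhibitor with a close paralogue that could share its counts, was at 736, 1294 and 1944 CPM (order WT_Ctrl, WT_UV, RP_UV), a ratio of 2.64 (2.34 to 2.99). Fibroblasts had a ratio of 9.66 (8.37 to 11.2) for the same gene, and T cells of RP_UV were at 2219 CPM. Col18a1, the basement membrane collagen from which endostatin is cut, was at 56, 200 and 227 CPM, a ratio of 4.05 (2.63 to 6.55), while keratinocytes and fibroblasts had ratios of 1.15 and 1.01 and pericytes and smooth muscle cells 2.66 (1.6 to 4.69) at a higher level, with 447 CPM in RP_UV. Tmem252 was at 178, 326 and 562 CPM, a ratio of 3.15 (2.47 to 4.08), and was nearly absent elsewhere, at 2.29 CPM in neutrophils as the next highest class. For these genes the level of WT_UV lay between those of WT_Ctrl and RP_UV.

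Peg3, Ada and Isyna1 had at most 3 UMIs in WT_Ctrl. Peg3, an imprinted zinc finger protein, had 3, 1 and 114 UMIs in WT_Ctrl, WT_UV and RP_UV, a ratio of 9.76 (3.26 to 48), with 17.5% of those in RP_UV in 1 cell. Ada, adenosine deaminase, which removes adenosine, had 1, 2 and 57 UMIs, a ratio of 14.6 (2.52 to 588), and Isyna1, inositol phosphate synthase, 3, 17 and 80. The Isyna1 level was 103 CPM in WT_UV and 52.3 in RP_UV. Fam167b, Adamts9 (a secreted metalloproteinase of the ADAMTS family) and Csrp2 (a LIM domain protein) had ratios of 4.4, 3.36 and 2.77, and pericytes and smooth muscle cells of RP_UV were at 440 CPM of Csrp2 against 352 in endothelial cells.

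**Figure D4:**
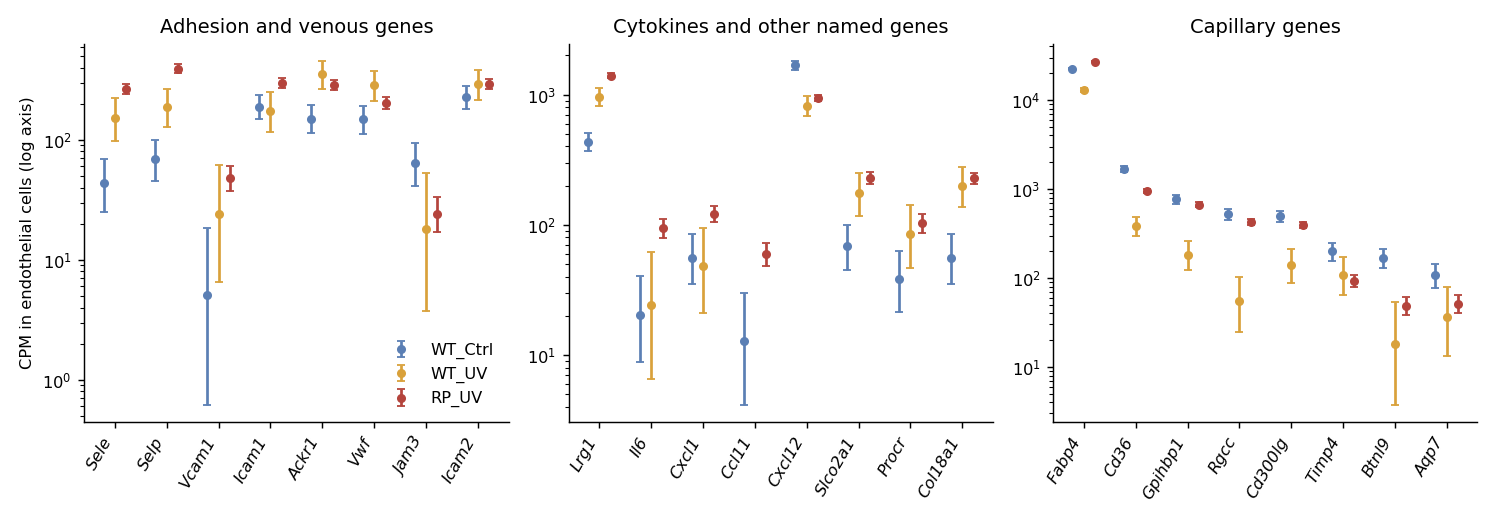
CPM in endothelial cells of WT_Ctrl, WT_UV and RP_UV on a log axis, with exact Poisson 95% intervals, for genes of adhesion and venules, of cytokines and other roles, and of capillaries. Ccl11 had no UMI in WT_UV and is not drawn there. Sele and Selp were highest in RP_UV, and Btnl9, Timp4 and Aqp7 were highest in WT_Ctrl.

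Of 19 listed prostaglandin genes 3 had at least 50 UMIs over WT_Ctrl and RP_UV, and Slco2a1 alone was past 2-fold (background 3.67%). Slco2a1 encodes the transporter that takes prostaglandins into cells for breakdown. It was at 68.7 CPM in WT_Ctrl, 175 in WT_UV and 229 in RP_UV, a ratio of 3.33 (2.25 to 5.12), and was found in 16.8% of endothelial cells and 0% of macrophages of RP_UV at 1000 UMIs a cell. In venous-like cells it was at 81.8 and 533 CPM, a ratio of 6.51 (2.17 to 32.1) resting on 3 UMIs in WT_Ctrl, and in capillary-like cells at 45.9 and 125, a ratio of 2.72 (1.42 to 5.82). Keratinocytes went the other way, with a ratio of 0.362 (0.31 to 0.422).

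Ptgs2 itself, whose rat version is the transgene of the RP line, had 0 UMIs in endothelial cells of WT_Ctrl, 1 in WT_UV and 41 in 35 cells of RP_UV. Its level of 26.8 CPM in RP_UV was at least 3.51-fold higher than the floor of 3 UMIs in WT_Ctrl. It was found in 3.82% of endothelial cells of RP_UV at 1000 UMIs a cell, against 11.1% of macrophages, and neutrophils of that library were at 4333 CPM, so free RNA and expression in endothelial cells cannot be told apart. How reads of the rat transgene were counted is not given in the sources used here. Ptgs1, the constitutive cyclooxygenase, was at 61.1, 175 and 95.5 CPM (order WT_Ctrl, WT_UV, RP_UV), a ratio of 1.56 (1.01 to 2.52). Ptger4, a PGE2 receptor, had 8, 4 and 38 UMIs, a ratio of 1.22 (0.561 to 3.03), and Ptgir, the prostacyclin receptor, 3, 1 and 7. Ptges3, a PGE2 synthase and co-chaperone, was at 191, 193 and 180 CPM, a ratio of 0.945 (0.73 to 1.24), and had a UMI in 44.7%, 60% and 47.5% of cells. At 1000 UMIs a cell it was found in 15.9% of endothelial cells and 18.3% of macrophages of RP_UV.

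Genes of capillaries were more often lower than higher in RP_UV. The list of 9 had a median log2 ratio of -0.32, with 3 genes lower past 2-fold against a background of 3.57% and 0 higher. Btnl9, a butyrophilin-like surface protein, was at 168 CPM in WT_Ctrl, 18.1 in WT_UV and 49 in RP_UV, a ratio of 0.292 (0.207 to 0.413). Timp4, a metalloproteinase inhibitor, was at 199, 109 and 92.9 CPM, a ratio of 0.468 (0.352 to 0.624), and Aqp7, a glycerol channel, at 107, 36.3 and 51, a ratio of 0.477 (0.324 to 0.712). Btnl9 is one of the genes that chose the capillary-like cells, in which it was at 230 and 64 CPM in WT_Ctrl and RP_UV, given as a description only.

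Genes of fatty acid handling differed in direction. Fabp4, the lipid chaperone that dominates capillary transcripts, was at 22514 CPM in WT_Ctrl, 12975 in WT_UV and 27088 in RP_UV, a ratio of 1.2 (1.18 to 1.23). Cd36, the fatty acid translocase, was at 1698, 381 and 956 CPM, a ratio of 0.563 (0.513 to 0.618). Gpihbp1, which anchors lipoprotein lipase on capillaries, was at 769, 181 and 668 CPM. WT_UV was the lowest of the libraries for each capillary gene except Timp4, and it also held the smallest share of capillary-like cells. Of 10 measured genes of fatty acid uptake 1 was higher past 2-fold and 1 lower (background 3.67% and 3.57%). These were Fabp5, an epidermal lipid chaperone, at 985, 665 and 2598 CPM against 8740 in keratinocytes of RP_UV, and Angptl4, an inhibitor of lipoprotein lipase, with a ratio of 0.408 (0.269 to 0.626).

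The other lower genes were of varied function. Txnip, the thioredoxin-interacting protein that limits glucose uptake, was at 1113, 556 and 394 CPM (order WT_Ctrl, WT_UV, RP_UV), a ratio of 0.354 (0.312 to 0.401). Macrophages, keratinocytes and fibroblasts had Txnip ratios of 0.453, 0.278 and 0.535, and T cells a ratio of 1.12 (0.763 to 1.59). Other classes were also below WT_Ctrl for Clec2d, a ligand of an inhibitory receptor of natural killer cells, with a ratio of 0.384 (0.303 to 0.489) in endothelial cells and 0.537, 0.563 and 0.713 in macrophages, keratinocytes and fibroblasts. T cells had a Clec2d ratio of 0.622 (0.28 to 1.2).

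Depp1, a stress-induced regulator of autophagy, was at 229, 84.6 and 66.7 CPM, a ratio of 0.291 (0.217 to 0.391), with 29.6 CPM (3 UMIs) in pericytes and smooth muscle cells of WT_Ctrl. Cdkn1c, an inhibitor of the cell cycle, was at 115, 30.2 and 36 CPM, a ratio of 0.314 (0.208 to 0.476). Rsad2, the antiviral protein viperin, was at 115, 42.3 and 34 CPM, a ratio of 0.297 (0.195 to 0.453), and 19.2% of its UMIs in RP_UV were in 1 cell. Ablim3 and Limch1, which bind the actin cytoskeleton, had ratios of 0.326 and 0.344, Rgs4, a brake on G protein signals, 0.271, and Rnf144a, a ubiquitin ligase, 0.257. Pericytes and smooth muscle cells of WT_Ctrl, 33 cells in all, were at 435 CPM of Rgs4 against 91.7 in endothelial cells, and had an Rgs4 ratio of 0.478 (0.321 to 0.716). Without the endothelial cells that held 3 of 8 pericyte genes the log2 ratio of Rgs4 was -1.62, against -1.84 with them. For the genes of this paragraph WT_UV lay below WT_Ctrl.

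Ccl21a, the chemokine by which lymphatic vessels attract dendritic cells, had the lowest ratio of all named genes. It was at 446 CPM in WT_Ctrl, 1022 in WT_UV and 1.31 in RP_UV (175, 169 and 2 UMIs), a ratio of RP_UV over WT_Ctrl of 0.00293 (0.000353 to 0.0108). These UMIs came from few cells, with 53.7% of those of WT_Ctrl and 100% of those of WT_UV in a single cell. Near-identical copies of Ccl21a exist, so the count of this gene is uncertain. The other lymphatic genes had low counts throughout, with Prox1, the master regulator of lymphatic identity, at 20, 6 and 10 UMIs and Mmrn1 at 40, 8 and 9. Without cells that held at least 2 genes of the lymphatic list before thinning, the log2 ratio of Ccl21a was 0.00 and that of Nsg1, an endosomal protein, 0.75, against -7.60 and -2.57 with them, and that of Slc41a1, a magnesium transporter, was -0.03 against -1.73. Ccl21a is itself on that list, so its value without these cells is set by the choice of cells. With classes taken after thinning, capillary-like cells held 20 Ccl21a UMIs in WT_Ctrl and 0 in RP_UV, and venous-like cells 8 and 2 Nsg1 UMIs.

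Several other groups of vessel genes had few members past 2-fold, as had all measured genes (3.67% higher and 3.57% lower). Notch genes, which separate tip from stalk cells and arteries from veins, had 10 of 12 genes with at least 50 UMIs, none with a ratio above 1, and 1 past 2-fold. That gene was Dll4, the endothelial Notch ligand, at 102, 66.5 and 38.6 CPM (order WT_Ctrl, WT_UV, RP_UV), a ratio of 0.379 (0.249 to 0.581). In capillary-like cells the Dll4 ratio was 0.289 (0.153 to 0.551), and in arterial-like cells 2.8 (0.693 to 24.5) from 2 UMIs in WT_Ctrl. The median log2 ratio of the Notch list was -0.32.

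The list of angiogenic tip cell genes had 11 measured members with a median log2 ratio of -0.20, none higher and 2 lower (Dll4 and Trp53i11). The background for lower genes was 3.57%. Aplnr, the apelin receptor of veins, was just within 2-fold at 153, 66.5 and 296 CPM, a ratio of 1.94 (1.48 to 2.58). Of 10 genes of BMP and TGF-beta signalling only Smad1, a signal transducer of BMP receptors, was past 2-fold, at a ratio of 0.404 (0.311 to 0.527). The flow-responsive factor Klf2 was at 881, 701 and 894 CPM and Nos3, the nitric oxide synthase of endothelium, at 50.9, 72.6 and 66. No member of the lists of junctions (9 measured), flow response (5) and angiopoietin signalling (4) was past 2-fold. The junction gene Jam3, which belongs to another list, was lower past 2-fold as given above. Cldn5, a further junction gene, helped to choose the cells and is not counted here.

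Haemostasis genes had 2 of 8 measured members higher (background 3.67%), Procr and Selp, which is also on the adhesion list. The background was the same for the further lists of this paragraph. Procr, the endothelial receptor of the anticoagulant protein C, was at 38.2, 84.6 and 103 CPM, a ratio of 2.69 (1.58 to 4.92), with 151 CPM in pericytes and smooth muscle cells of RP_UV. Among 9 vasoactive genes only Ddah2, which breaks down an inhibitor of nitric oxide synthase, was past 2-fold, at 48.4, 115 and 126 CPM, a ratio of 2.6 (1.62 to 4.41), with 167 CPM in fibroblasts of RP_UV. Edn1, the vasoconstrictor endothelin-1, was at 99.3, 296 and 61.5 CPM, and 1 cell held 30 of the 49 UMIs of WT_UV (61.2%). Of 8 genes of caveolae 1 was higher, Ehd4, a membrane remodelling ATPase, at a ratio of 2.25 (1.9 to 2.67). Of 12 basement membrane genes Col18a1 alone was past 2-fold, and Col4a1, a chain of type IV collagen, had a ratio of 1.03 (0.919 to 1.16).

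Lists of stress and immune genes gave few genes past 2-fold, as did all measured genes (3.67% higher and 3.57% lower). MHC class I genes had 6 measured members, none with a ratio above 1 and none past 2-fold, with B2m, the light chain of class I molecules, at 1441, 1427 and 1090 CPM. The median log2 ratio of that list was -0.50. Of 14 interferon genes Rsad2 and Igtp, an immunity-related GTPase, were lower and none was higher. Immediate early genes, which answer to growth factors, stress and tissue dissociation, had 15 measured members, none past 2-fold, 1 with a ratio above 1 and a median log2 ratio of -0.23. Fos was at 1133, 683 and 1084 CPM (order WT_Ctrl, WT_UV, RP_UV).

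For the lists of this paragraph the background was 3.67% higher and 3.57% lower. Among 7 measured NRF2 and metallothionein genes, Nqo1, a quinone reductase, was higher, at 15.3, 36.3 and 54.9 CPM, a ratio of 3.6 (1.58 to 10.1). Among 7 measured p53 targets, Phlda3, an inhibitor of Akt, was higher at a ratio of 2.39 (1.24 to 5.14), with 274 CPM in pericytes and smooth muscle cells of RP_UV against 60.8 in endothelial cells, while Cdkn1a, the cell cycle inhibitor p21, had a ratio of 1.23 (0.982 to 1.56). Hypoxia and glycolysis genes were split, with Pgk1, a glycolytic kinase, at a ratio of 2.48 (1.56 to 4.15), Pfkfb3, a driver of glycolysis in sprouting vessels, at 0.376 (0.248 to 0.573) and Ankrd37 at 0.371 (0.221 to 0.63). Of the 8 measured clock genes none was past 2-fold. Dbp, a clock output factor, was at 91.7, 24.2 and 169 CPM, a ratio of 1.85 (1.3 to 2.7). Glucocorticoid targets (7 measured) had none past 2-fold. Of 9 heat shock genes 1 was lower, Hspa1b, a chaperone with a near-identical copy, at a ratio of 0.48 (0.381 to 0.607). Of 11 acute phase and STAT3 genes Lrg1 alone was past 2-fold. The lists of venous (4 measured) and arterial genes (5) had none past 2-fold and median log2 ratios of 0.20 and -0.28, and Cd74, the 1 measured gene of MHC class II, had 31, 14 and 20 UMIs against 19276 CPM in macrophages of WT_Ctrl.

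**Figure D5:**
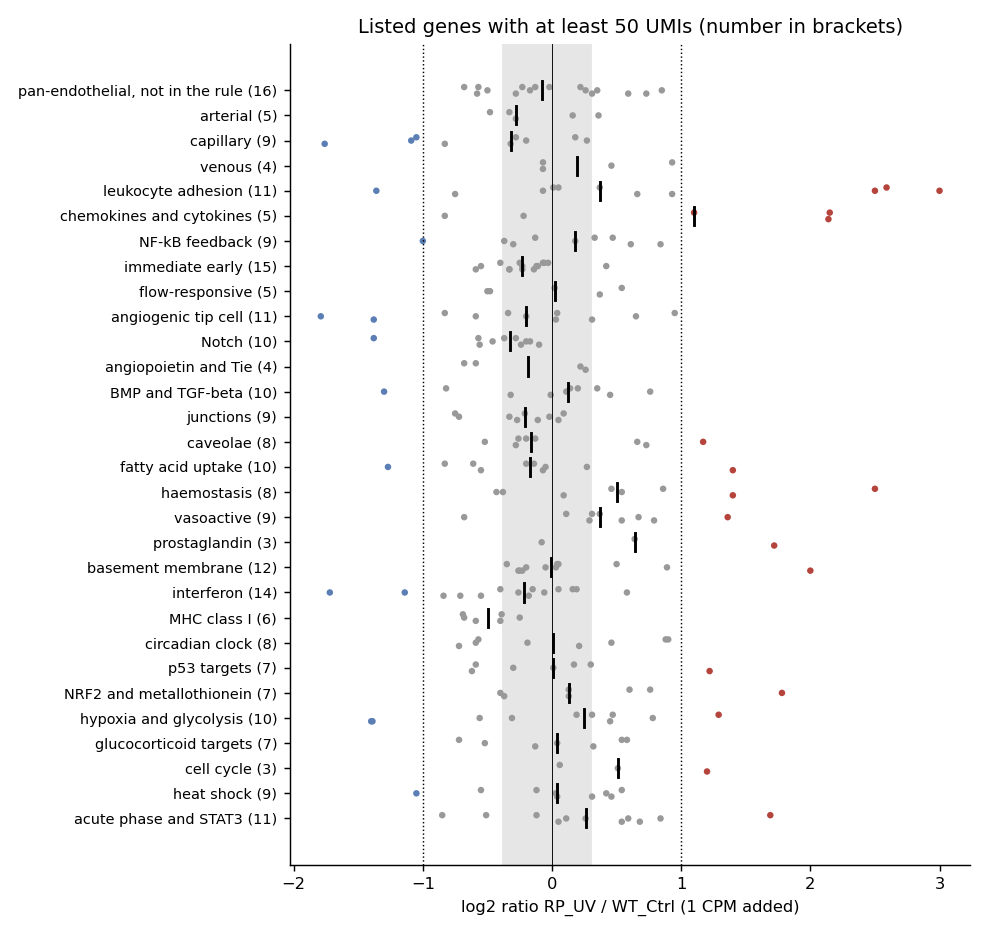
Each point is a listed gene with at least 50 UMIs over both libraries, by its log2 ratio of RP_UV over WT_Ctrl in endothelial cells with 1 CPM added, in red at 1 or above and in blue at -1 or below. Black bars are list medians, the grey band spans the quartiles over all 5156 genes (-0.38 to 0.30), and dotted lines mark 2-fold. The points farthest to the right are in leukocyte adhesion, chemokines and cytokines, and haemostasis.

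Cells with several cell cycle genes were a minority in each library. Transcripts of 15 cell cycle genes summed to 176 CPM in WT_Ctrl, 1554 in WT_UV and 338 in RP_UV. At least 3 of these genes were found in 1 of 103 cells of WT_Ctrl, 4 of 20 of WT_UV and 31 of 356 of RP_UV. These counts were made without thinning, and WT_UV was the deepest library. In WT_UV 1 cell held 83.3% of the 42 UMIs of Top2a, a topoisomerase of dividing cells, so the level of this gene there came mostly from 1 cell. Tyms, thymidylate synthase, had a ratio of RP_UV over WT_Ctrl of 2.33 (1.28 to 4.65), with 102 CPM in keratinocytes of RP_UV against 71.3 in endothelial cells, and Pcna, the replication clamp, had a ratio of 1.04.

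RNA of other cell types was present in the selected cells. Genes of pericytes and smooth muscle summed to 2276, 2654 and 3028 CPM (order WT_Ctrl, WT_UV, RP_UV), and at least 3 of the 8 genes were found in 26.2% (18.7 to 35.5), 15% (5.24 to 36) and 28.7% (24.2 to 33.6) of cells. Rgs5, a pericyte gene, was at 1146, 345 and 1095 CPM, and Acta2, smooth muscle actin, at 89.1, 937 and 730. In WT_UV 1 cell held 94.8% of the Acta2 UMIs. Without the cells that held 3 such genes Selp, Sele and Lrg1 had log2 ratios of 3.54, 3.63 and 2.22, all larger than with them (2.50, 2.59 and 1.69).

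Macrophage RNA moved with the groups. The cells that held at least 1 UMI of 9 macrophage genes were 38.8% (30 to 48.5) without UVB, 65% (43.3 to 81.9) for WT_UV and 73.9% (69.1 to 78.2) for RP_UV. The summed level of these genes was 183, 145 and 443 CPM, and Adgre1, the macrophage surface marker F4/80, had 1, 0 and 2 UMIs. Among the 63 cells of WT_Ctrl and 93 of RP_UV without such a UMI, the log2 ratio of Selp was 3.59 and that of Sele 3.82. Genes of T cells had at most 2 UMIs each in every library.

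Haemoglobin transcripts came from few cells, whereas keratinocyte transcripts were spread over many cells in the irradiated libraries. Haemoglobin genes had 1, 2 and 2684 UMIs, and 5 cells held 99.7% of those in RP_UV. Genes of keratinocytes summed to 1324, 345 and 283 CPM, and 6 of 6 measured genes were lower in RP_UV past 2-fold, but 1 cell held 80.2% of the Krt10 UMIs of WT_Ctrl. A UMI of these genes was found in 46.6%, 95% and 59.6% of cells (order WT_Ctrl, WT_UV, RP_UV), and in RP_UV Krt10 had 60 UMIs over 51 cells. Without the 5% of cells with the most UMIs in each library the median log2 ratio of the keratinocyte list was 0.60, against -2.68 with them. Neutrophil genes summed to 58.6, 6.05 and 52.3 CPM, mast cell genes to 0, 6.05 and 63.4, and fibroblast genes to 328, 109 and 500. Platelet genes summed to 43.3, 72.6 and 124 CPM, Schwann cell genes to 38.2, 60.5 and 9.81, skeletal muscle genes to 7.64, 0 and 11.8, and adipocyte genes to 5.09, 0 and 0.654. The parts of these RNAs in the genes described above were not tested beyond the values given.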

How the data were processed

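The authors deposited UMI counts per gene and cell, 1 matrix per library, made with Cell Ranger (6.1.1 per the file headers) on build mm10 per the submitters' processing notes, and not normalized. Each matrix held 32285 genes. As in the methods of the study, cells were kept with a mitochondrial share under 10%, over 200 genes and under 4000 genes (6000 in WT_UV), and no doublet caller was run. Counts were summed over the selected cells of a library and divided by their total to give CPM, with exact Poisson intervals and exact conditional binomial intervals of ratios. Genes with at least 50 UMIs over WT_Ctrl and RP_UV were compared, at 2-fold, and a count of 0 was set to a floor of 3 UMIs (7.64, 18.1 and 1.96 CPM in WT_Ctrl, WT_UV and RP_UV).

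Named genes were the 15 highest and 15 lowest by the interval bound nearest to 1, among genes at no less than 0.5 of their level in any of 6 other classes with at least 50 cells in the library where they were higher. Genes of lists are named beside their list. The selected cells, the 45 lists and the rule were chosen with earlier results of these data known. Thinning drew UMIs without replacement. Scripts used Python 3.11.15, numpy 2.4.6, scipy 1.17.1 and pandas 2.3.3 and were tested on simulated data.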

Additional observations from a re-analysis of the deposited data

How the results depend on the processing

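With 1 library per group no replicate could be left out, and no paired analysis was possible because each group held a single library. The ratio of shares stayed between 2.44 and 3.75 in 4 of 5 alternatives and was 1.92 without cells that held a UMI of Ptprc, Tyrobp, Krt14 or Krt5. The 189 higher and 184 lower genes became 115 and 127 under that limit, 79 and 31 at 1000 UMIs a cell, where fewer genes reached 50 UMIs, 497 and 546 at 20 UMIs, 85 and 56 at 100 UMIs, and 409 and 1742 with no filter, where the floor of 3 UMIs differs between libraries. Alternatives chosen after seeing the data left out cells with 3 of 8 pericyte genes (221 and 139), a haemoglobin UMI (178 and 183) or a macrophage-gene UMI (70 and 75, with 2016 genes tested instead of 5156). Centring on the median moved log2 ratios by 0.04 and gave 199 and 161 genes. Of 25 named or listed higher genes 24 kept their direction throughout, and of 27 lower genes 24. The exceptions were Cxcl1 (-0.04 without cells holding a macrophage-gene UMI), Nsg1 (0.75) and Ccl21a (0.00) without lymphatic-like cells, which Ccl21a helped to choose, and Irf1 (0.10 at 1000 UMIs a cell). The keratinocyte list turned to 0.64 at 4 of 7 endothelial genes, 0.60 without the deepest 5% of cells and 0.64 without cells with a haemoglobin UMI. Vessel classes depended on depth: capillary-like cells were 86.4% and 89.3% of WT_Ctrl and RP_UV without thinning and 56.3% and 54.8% at 500 UMIs, arterial-like cells 34% and 34.8%, then 4.85% and 5.34%, and venous-like cells 26.2% and 37.4%, then 4.85% and 5.06%. The 20 cells of WT_UV, with a floor of 18.1 CPM, limit every statement on that library.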
